A study of Homo sapiens with 12 samples.

Results

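The genes described here are 9 genes of zinc handling, of the 60483 genes in the deposited table: the metallothioneins MT1X, MT1E, MT1F, MT1G and MT2A, the zinc exporter SLC30A1, the zinc importers SLC39A8 and SLC39A10, and the zinc sensor MTF1. They were chosen by name and found in the table through their Ensembl identifiers. RNA was sequenced from HUDEP-2, an established human line of immortalized erythroid progenitors derived from cord blood. There were 4 groups of 3 libraries. MBD2KO cells carried the genotype MBD2-/-, and sgSCR cells were their controls with a scrambled guide RNA, labelled WT. MBD2 is a protein that binds methylated CpG sites and recruits a repressor complex. Each kind of cell was collected after erythroid differentiation, labelled late basophilic erythroblast, and before it, labelled early basophilic erythroblast. The differentiation medium was IMDM with human AB serum, insulin, heparin and holo-transferrin, and the expansion medium was StemSpan SFEM II with SCF and dexamethasone (DEX). Both media held EPO and doxycycline (DOX), so stage and medium changed together and cannot be told apart. The labels give the length of differentiation as 5 days in one place and 3 days in another. They do not state whether the replicates were separate cultures or whether MBD2KO was 1 clone, so the spread behind each p-value may be technical.

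Zinc inside a cell is held low by export, by binding to metallothioneins and by storage in vesicles. Metallothioneins are small cysteine-rich proteins that bind zinc and copper. When free zinc rises, the transcription factor MTF1 binds metal response elements in the promoters of the metallothionein genes and of SLC30A1, whose product pumps zinc out across the plasma membrane. SLC39A8 (ZIP8) and SLC39A10 (ZIP10) bring zinc into the cytosol. Red cell precursors need zinc for carbonic anhydrases and for the haem enzyme ALAD, and metallothionein genes also respond to copper, cadmium and glucocorticoids.

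The promoters of MT2A, MT1X and SLC30A1 are shown because, of those at hand, they held the most matches to the core of the element that MTF1 reads. RefSeq (GRCh38.p14) windows of 300 bases, 250 before and 50 after a RefSeq start site, were at hand for 6 of the 9 genes. These starts can differ from those of the counted genes. The SLC30A1 window lies wholly upstream of the counted gene, and the MT2A window lies wholly inside it. MT1E, MT1F and MT1G had no entry. Capitals mark the core of the metal response element, searched as TGCACNC and TGCGCNC on both strands. The windows lie at chr16:56608334-56608633 on the plus strand (MT2A), chr16:56682220-56682519 on the plus strand (MT1X) and chr1:211579112-211579411 on the minus strand (SLC30A1).
MT2A: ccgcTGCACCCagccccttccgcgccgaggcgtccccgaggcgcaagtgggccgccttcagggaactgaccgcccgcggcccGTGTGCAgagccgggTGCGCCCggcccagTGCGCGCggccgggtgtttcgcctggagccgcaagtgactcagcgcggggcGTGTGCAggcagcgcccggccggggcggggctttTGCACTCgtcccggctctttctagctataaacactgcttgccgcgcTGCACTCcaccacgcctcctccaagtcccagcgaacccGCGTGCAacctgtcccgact
MT1X: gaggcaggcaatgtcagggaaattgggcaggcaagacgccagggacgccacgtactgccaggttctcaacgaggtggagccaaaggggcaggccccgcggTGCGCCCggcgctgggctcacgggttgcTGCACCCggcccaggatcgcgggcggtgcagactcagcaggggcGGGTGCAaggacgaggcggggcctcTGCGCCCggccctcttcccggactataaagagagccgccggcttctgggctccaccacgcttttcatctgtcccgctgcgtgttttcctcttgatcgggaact
SLC30A1: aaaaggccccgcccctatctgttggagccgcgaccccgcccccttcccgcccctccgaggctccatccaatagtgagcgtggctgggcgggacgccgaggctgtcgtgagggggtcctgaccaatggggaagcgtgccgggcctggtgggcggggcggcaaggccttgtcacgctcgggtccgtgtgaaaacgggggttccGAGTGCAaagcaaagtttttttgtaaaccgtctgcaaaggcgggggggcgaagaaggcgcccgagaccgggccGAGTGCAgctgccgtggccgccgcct

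MT2A held 8 cores, MT1X 4 and SLC30A1 2. Of the 35116 promoter windows searched, 29.6% held 1 core or more, 8.6% held 2 or more, 0.601% held 4 or more and 0.0199% held 8 or more. The windows were also rich in CpG, with 37 CpG dinucleotides in MT2A, 26 in MT1X and 30 in SLC30A1, against a median of 14 over all windows. This was not particular to these genes, as MTF1 held 24, SLC39A10 22 and 30, and SLC39A8 19, 14 and 26 in its windows. The MTF1 window held 0 cores. SLC39A8 had 3 windows, 1 of them with 1 core, and SLC39A10 had 2 windows, 1 of them with 1 core. These are matches of letters and not measured binding sites.

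Total counts ran from 7667997 to 14047498 per library. MBD2 itself was at 16.8, 16.1 and 14.6 CPM in MBD2KO libraries after differentiation, against 61.4, 59.1 and 58.2 CPM in sgSCR. Before differentiation it was at 22.7, 19.8 and 24.5 CPM in MBD2KO and 78.7, 77.7 and 75.3 CPM in sgSCR. CPM is the count scaled to one common library size with TMM factors, a scaling that takes most genes as unchanged. Ribosomal RNA genes, nuclear and mitochondrial together, took 2.33% ± 0.566 of the counts in MBD2KO after differentiation. In sgSCR they took 0.794% ± 0.242 (SD, n = 3 each), and the part of this difference in the results was not tested. The erythroid genes TFRC, KLF1, GATA1, EPOR and ALAS2 were detected in every library. Members were tested with edgeR over the 17175 genes that passed a filter on low counts, and a gene was called at an adjusted p under 0.05 (Benjamini-Hochberg). The filter kept 8 of the 9 members, all but MT1F.

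After differentiation, the metallothioneins MT1X and MT1G were lower in MBD2KO than in sgSCR, the exporter SLC30A1 was 3.06-fold higher, and the importers moved in opposite directions. Of the 8 members tested, 2 were called higher (SLC30A1 and SLC39A8), where 16.8% of all genes tested were, and 3 were called lower (MT1X, MT1G and SLC39A10), where 16.3% were, or 33.1% in either direction. The median log2 fold change of the 8 was -0.27, against -0.01 over all genes. Before differentiation, 1 member was called higher (SLC30A1), where 9.07% of all genes were, and 1 lower (SLC39A10), where 8.15% were, or 17.2% in either direction. The median of the 8 was then -0.06, against -0.00 over all genes. In bulk libraries, fewer cells of a type and less RNA per cell cannot be told apart.

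**Figure D1:**
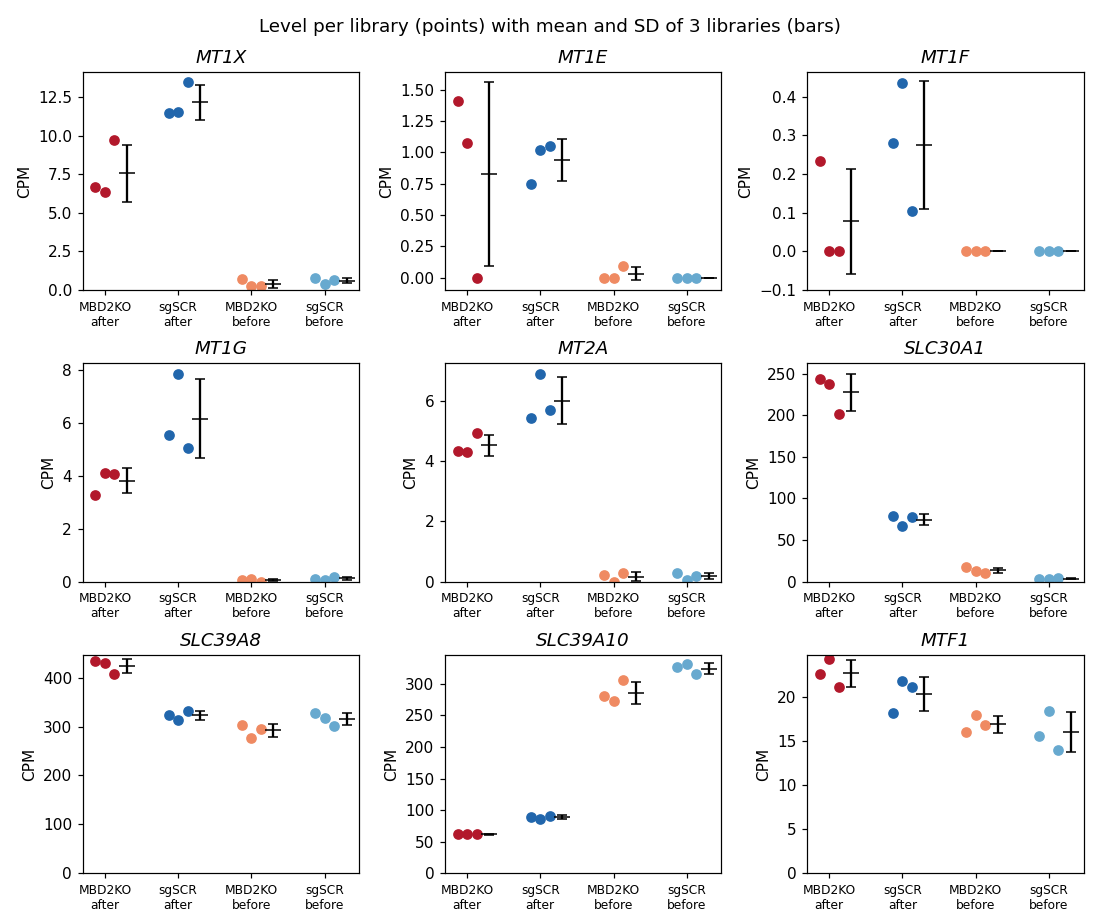
Level of each member in CPM in every library (points, replicates 1 to 3 from left to right), with the mean and SD of 3 libraries beside them. SLC30A1 in MBD2KO lay between 202 and 243.4 CPM after differentiation, above all sgSCR libraries, and the metallothioneins were close to 0 before differentiation in both kinds of cell.

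MT1X, the metallothionein with the most counts, lies on chromosome 16 at 56682424 to 56684196 (hg38, plus strand), in the cluster that holds all 5 members of the family. After differentiation it was at 6.68, 6.35 and 9.70 CPM in MBD2KO, against 11.4, 11.5 and 13.5 CPM in sgSCR. All 3 knockout libraries lay below all 3 controls, with replicate 3 of MBD2KO nearest to them. The log2 fold change was -0.69 ± 0.19 (SE, adjusted p = 0.0088). Without replicate 2 of MBD2KO after differentiation it was -0.58 and no longer called (adjusted p = 0.0566). Before differentiation MT1X had 10, 3 and 3 counts in MBD2KO and 8, 6 and 7 counts in sgSCR, groups that overlapped, and no difference was called (-0.40 ± 0.48 on the log2 scale, adjusted p = 0.65).

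MT1G (16: 56666731 to 56668065, minus strand) was at 3.28, 4.09 and 4.08 CPM in MBD2KO after differentiation, against 5.53, 7.85 and 5.05 CPM in sgSCR. The groups did not overlap, and the spread was wider among the controls, where replicate 2 was highest. MT1G fell by 0.71 ± 0.22 on the log2 scale (adjusted p = 0.0187). That call was lost without replicate 2 of sgSCR (-0.48, adjusted p = 0.139), without replicate 1 of MBD2KO (-0.61, adjusted p = 0.0873) and with DESeq2 (-0.71, adjusted p = 0.0732). Before differentiation MT1G had 2 counts over the 3 MBD2KO libraries and 4 over the 3 sgSCR libraries, a ratio of 0.498 (exact 95% interval 0.0451 to 3.48, counting error only), so a difference was not detectable at this depth.

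MT2A (16: 56608199 to 56609497, plus strand), the most widely expressed metallothionein in human tissues, was at 4.34, 4.30 and 4.92 CPM in MBD2KO after differentiation, against 5.44, 6.90 and 5.68 CPM in sgSCR. Every knockout library lay below every control, yet the difference was not called (-0.42 ± 0.22 on the log2 scale, adjusted p = 0.156). It was called only when counts were scaled to library size alone (-0.58, adjusted p = 0.0466). Before differentiation MT2A had 3, 0 and 3 counts in MBD2KO and 3, 1 and 2 counts in sgSCR, and the groups overlapped.

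MT1E (16: 56625475 to 56627112, plus strand) had 12, 10 and 0 counts in MBD2KO after differentiation, against 8, 14 and 10 counts in sgSCR. Replicate 3 of MBD2KO was the single library of the 6 without a count, and the other 2, at 1.41 and 1.08 CPM, lay above the 3 controls, at 0.750, 1.02 and 1.05 CPM. The log2 fold change was -0.10 ± 0.56 (adjusted p = 0.91) with that library and 0.39 without it. MT1F (16: 56657694 to 56660698, plus strand) had 2, 0 and 0 counts in MBD2KO after differentiation and 3, 6 and 1 counts in sgSCR, a ratio of 0.272 (exact 95% interval 0.029 to 1.28). Before differentiation MT1E had 1 count over the 6 libraries and MT1F had 0.

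**Figure D2:**
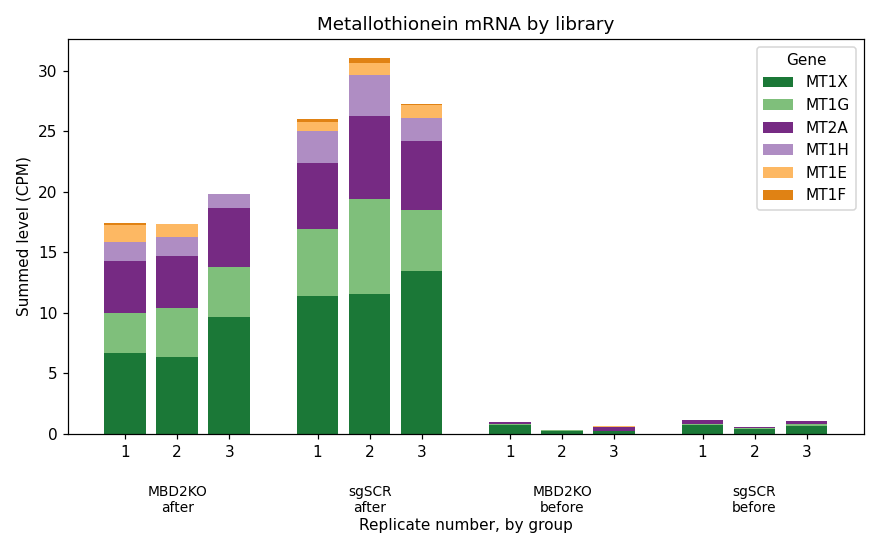
Summed CPM of MT1X, MT1G, MT2A, MT1H, MT1E and MT1F in each library, stacked by gene, with replicate numbers below the bars. All 3 MBD2KO bars after differentiation are lower than all 3 sgSCR bars, and the bars before differentiation are barely visible.

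Summed over the 5 members, metallothionein mRNA was at 15.9, 15.8 and 18.7 CPM in MBD2KO after differentiation, against 23.4, 27.8 and 25.4 CPM in sgSCR. Before differentiation the sum lay between 0.359 and 1.01 CPM in MBD2KO and between 0.542 and 1.13 CPM in sgSCR. The groups stood apart after differentiation and overlapped before it. Of 11 further metallothionein genes and pseudogenes listed, 1 passed the filter, MT1H, a neighbour in the same cluster. MT1H had 13, 14 and 8 counts in MBD2KO after differentiation, against 28, 46 and 18 counts in sgSCR, and 0 counts in all 6 libraries before it. It was called lower in MBD2KO (-0.93 ± 0.31 on the log2 scale, adjusted p = 0.0334), a call lost with DESeq2 (adjusted p = 0.144) and without any library after differentiation other than replicate 3 of sgSCR (adjusted p between 0.0719 and 0.157). MT3 and MT4, the brain and epithelial forms, had 0 counts in all libraries.

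The metallothionein values rest on short genes that resemble each other. Of the 50-base stretches in their transcripts, 18.3% in MT1X, 16.5% in MT1G, 15.8% in MT1H, 7.1% in MT1E, 3.02% in MT2A and 1.22% in MT1F also occur in transcripts of another gene, so reads from 1 gene can have been given to another or dropped. MT1X also shares 321 of its 1773 exon bases with AC026461.1 on the same strand. No antisense gene overlaps the exons of the 9 members, which matters because the counting used no strand.

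SLC30A1 (ZnT1; chromosome 1, 211571568 to 211578742, minus strand) showed the largest knockout effect among the 8 members at both stages. After differentiation it was at 243.4, 237.9 and 202 CPM in MBD2KO, against 78.7, 66.7 and 78.2 CPM in sgSCR. Before differentiation it was at 17.1, 12.1 and 10.7 CPM in MBD2KO, against 3.28, 2.71 and 3.71 CPM in sgSCR. At each stage every MBD2KO library lay far above every control. The log2 fold change was 1.61 ± 0.11 after differentiation (3.06-fold, adjusted p = 9.12e-09) and 2.08 ± 0.19 before it (4.21-fold, adjusted p = 7.47e-07). The difference between the stages in this effect was not called (-0.46 ± 0.23, adjusted p = 0.22). Over all alternatives run, the log2 fold change lay between 1.46 and 1.69 after differentiation and between 1.83 and 2.20 before it.

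SLC39A8 (ZIP8; chromosome 4, 102251041 to 102431258, minus strand), an importer of zinc, manganese and iron had the most counts of the 9 members over the 12 libraries. After differentiation it was at 434.7, 430.8 and 407.9 CPM in MBD2KO, against 324.6, 312.8 and 331 CPM in sgSCR, and the groups stood well apart. Before differentiation it was at 303.1, 277.3 and 296.1 CPM in MBD2KO and 327, 317.5 and 301.9 CPM in sgSCR, and the groups overlapped. The log2 fold change was 0.40 ± 0.06 after differentiation (adjusted p = 8.58e-05) and -0.11 ± 0.06 before it (adjusted p = 0.254). The knockout effect differed between the stages by 0.51 ± 0.09 on the log2 scale (adjusted p = 0.00099). This modest rise depends on the scale: with library size alone it was 0.24 (adjusted p = 0.00348), and in TPM the groups after differentiation overlapped, at 74.0, 72.2 and 78.0 TPM in MBD2KO and 74.7, 64.6 and 75.3 TPM in sgSCR. TPM is the count per exon length, scaled to the same sum in each library. Genes with less than 400 exon bases took 48% to 64.6% of all TPM, so TPM is otherwise used here only to compare genes within a group.

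SLC39A10 (ZIP10; chromosome 2, 195575977 to 195737702, plus strand), an importer that B cells need for survival in mice, was at 61.2, 62.1 and 61.4 CPM in MBD2KO after differentiation, against 89.6, 85.1 and 91.3 CPM in sgSCR. Before differentiation it was at 280.6, 272.2 and 305.9 CPM in MBD2KO, against 326.5, 331.3 and 315.2 CPM in sgSCR. The groups did not overlap at either stage. SLC39A10 fell by 0.52 ± 0.07 on the log2 scale in MBD2KO after differentiation (adjusted p = 7.29e-06). The smaller effect before differentiation, -0.18 ± 0.06, passed narrowly (adjusted p = 0.0463). It missed the threshold in 13 of 18 alternatives, among them the fit to the libraries of that stage alone (adjusted p = 0.133). It was lost without replicate 1 or 2 of either group before differentiation (adjusted p between 0.0959 and 0.152) and without any 1 of the 6 libraries after differentiation (adjusted p between 0.0544 and 0.0659), which enter through the shared spread. The knockout effect after differentiation was below that before it by -0.34 ± 0.09 on the log2 scale (adjusted p = 0.0151).

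MTF1 (chromosome 1, 37809567 to 37859620, minus strand), the zinc-sensing transcription factor, was at 22.6, 24.2 and 21.1 CPM in MBD2KO after differentiation and 18.1, 21.7 and 21.1 CPM in sgSCR. Before differentiation it was at 15.95, 17.9 and 16.8 CPM in MBD2KO and 15.5, 18.4 and 14 CPM in sgSCR. The groups overlapped at both stages, and no knockout effect was called (0.16 ± 0.12 on the log2 scale after differentiation, adjusted p = 0.32, and 0.07 ± 0.12 before it, adjusted p = 0.755). The mRNA level does not report the activity of this protein, which zinc controls.

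**Figure D3:**
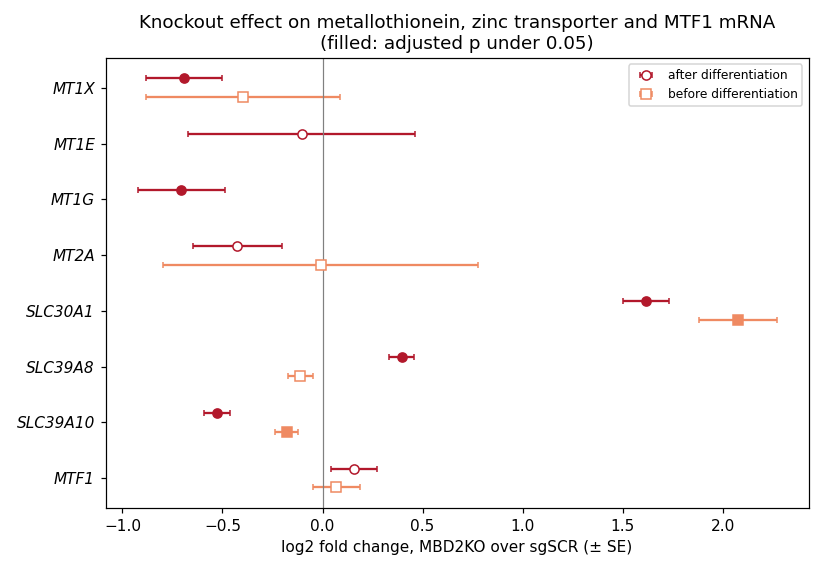
Log2 fold change of MBD2KO over sgSCR with its SE for members after differentiation (circles) and before it (squares), filled where the adjusted p is under 0.05. SLC30A1 lies at 1.61 and 2.08, while MT1X and MT1G lie near -0.7 after differentiation. Comparisons in which a group had 3 counts or fewer are left out.

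Most of these genes changed more with differentiation than with the knockout, but SLC39A8 in sgSCR did not. In MBD2KO, 7 of the 8 members tested were called higher after than before, where 28% of all genes tested were, and 1 lower, where 27.7% were, or 55.7% in either direction. In sgSCR, 6 were called higher, where 21.5% of all genes were, and 1 lower, where 22.3% were, or 43.8% in either direction. The median log2 fold change of the 8 was 4.06 in MBD2KO and 4.44 in sgSCR, against 0.03 and 0.01 over all genes. These comparisons share their libraries with those of the knockout, so the values stand side by side and are not separate evidence.

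MT1X rose 16.5-fold in MBD2KO (4.05 ± 0.31 on the log2 scale, adjusted p = 9.86e-09) and 20.3-fold in sgSCR (4.34 ± 0.27, adjusted p = 1.77e-09). MT2A rose 25.4-fold in MBD2KO (4.67 ± 0.40, adjusted p = 4.18e-08) and 33.9-fold in sgSCR (5.08 ± 0.37, adjusted p = 1.25e-08). Both were at 0.751 CPM or less in every library before differentiation. MT1G rose from a few counts: 95 counts over the 3 MBD2KO libraries after differentiation, against 2 before it, a ratio of 68.7 (exact 95% interval 18.5 to 575). In sgSCR it rose 50.7-fold (5.66 ± 0.38, adjusted p = 4.7e-09). MT1E had 22 counts after and 1 before in MBD2KO, a ratio of 31.8 (5.14 to 1.31e+03), and 32 after and 0 before in sgSCR, at least 11.3-fold higher with a floor of 3 counts over the group before differentiation. With the counting error of both groups, the exact 95% lower limit was 8.67-fold. For MT1F, 10 counts after and 0 before in sgSCR gave at least 3.53-fold with the same floor, and an exact 95% lower limit of 2.37-fold. The change with differentiation was not called different between MBD2KO and sgSCR for the 4 metallothioneins tested, in edgeR (unadjusted p between 0.377 and 0.829) or DESeq2. On the log2 scale the differences were -0.29 ± 0.55 (MT1X), 0.17 ± 0.67 (MT1G), -0.415 ± 0.84 (MT2A) and -1.88 ± 2.06 (MT1E). With so few counts before differentiation, this test cannot tell equal rises from unequal ones.

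SLC30A1 rose 16.9-fold with differentiation in MBD2KO (4.08 ± 0.13 on the log2 scale, adjusted p = 5.03e-13) and 23.3-fold in sgSCR (4.54 ± 0.17, adjusted p = 3.1e-12). By CPM its 4 groups therefore stood in the order MBD2KO after, sgSCR after, MBD2KO before and sgSCR before, with no overlap between neighbours. SLC39A10 went the other way, with a log2 fold change of -2.22 ± 0.07 in MBD2KO (adjusted p = 1.27e-13) and -1.87 ± 0.06 in sgSCR (adjusted p = 1.02e-12). Its order was the reverse, sgSCR before, MBD2KO before, sgSCR after and MBD2KO after, again without overlap. SLC39A8 was called higher with differentiation in MBD2KO (0.54 ± 0.06, adjusted p = 1.19e-06), and in sgSCR its log2 fold change was 0.03 ± 0.06 (adjusted p = 0.701). MTF1 was called higher in both, by 0.43 ± 0.12 in MBD2KO (adjusted p = 0.00478) and 0.34 ± 0.12 in sgSCR (adjusted p = 0.0241). The MTF1 call in MBD2KO was lost with library size alone (adjusted p = 0.0877), and that in sgSCR in 6 alternatives (adjusted p between 0.054 and 0.115), among them leaving out replicate 1 or 3 of sgSCR before, or 2 or 3 after differentiation. Of the 8 members, 1 was called higher in the test of the difference between stage effects (SLC39A8), where 6.28% of all genes were, and 1 lower (SLC39A10), where 6.68% were, or 13% in either direction.

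**Figure D4:**
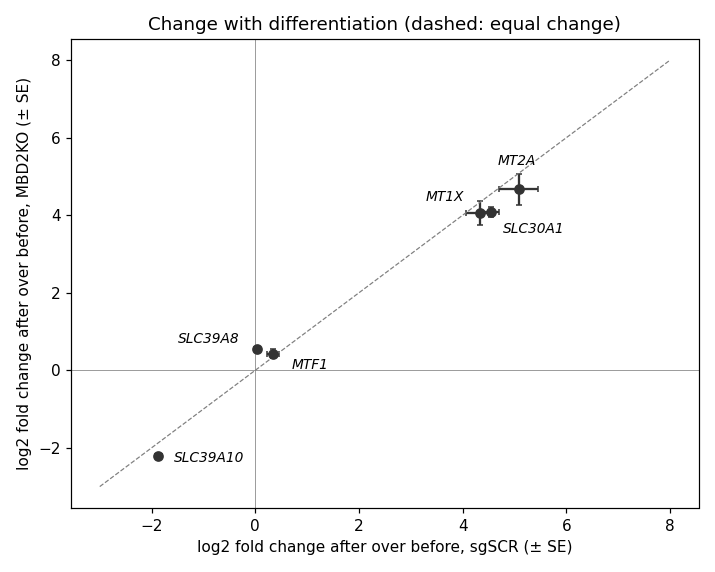
Log2 fold change after over before differentiation in MBD2KO (vertical) against sgSCR (horizontal), each with its SE, and a dashed line where both would be equal. MT1X, MT2A and SLC30A1 lie between 4 and 5.1 on both axes, and SLC39A10 lies near -2. The difference between the axes was called for SLC39A8 (0.51) and SLC39A10 (-0.34). MT1E, MT1F and MT1G, with 3 counts or fewer in a group before differentiation, are left out.

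Per length of transcript, the mean level of each of the 3 transporters was above that of each metallothionein in all 4 groups. After differentiation SLC39A8 averaged 74.8 ± 2.98 TPM, SLC30A1 47.3 ± 1.66 TPM and SLC39A10 10.2 ± 0.725 TPM in MBD2KO, against 71.5 ± 6.04, 19.6 ± 2.86 and 18.4 ± 1.70 TPM in sgSCR (SD, n = 3 each). SLC30A1 thus stood above SLC39A10 in every MBD2KO library, while in sgSCR these genes differed by less than their spread. Before differentiation SLC39A8 averaged 69.3 ± 8.81 TPM, SLC39A10 63.8 ± 10.3 TPM and SLC30A1 3.71 ± 0.857 TPM in MBD2KO. In sgSCR they averaged 78.0 ± 3.54, 75.2 ± 5.00 and 0.954 ± 0.213 TPM. The importers SLC39A8 and SLC39A10 did not differ beyond their spread in either kind of cell before differentiation. Among the metallothioneins after differentiation, MT1G was at 5.83 ± 0.958 TPM in MBD2KO and 11.6 ± 2.11 TPM in sgSCR. MT1X was at 4.94 ± 1.6 and 9.84 ± 1.26 TPM and MT2A at 3.99 ± 0.610 and 6.60 ± 0.451 TPM in the same groups, and MT1G and MT1X differed by less than their spread in both.

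Among the 10 further genes of zinc export listed, 5 passed the filter, and SLC30A10 stood out. It lies on chromosome 1 at 219685427 to 219958647 and encodes an exporter of manganese. SLC30A10 was at 13.9, 14.9 and 13.8 CPM in MBD2KO after differentiation, against 1.41, 0.363 and 0.526 CPM in sgSCR, and the groups stood far apart. Its log2 fold change was 4.24 ± 0.31 (18.9-fold, adjusted p = 1.33e-08). Before differentiation SLC30A10 had 91 counts over the 3 MBD2KO libraries, against 3 counts in sgSCR, all in replicate 2, a ratio of 30.2 (exact 95% interval 10 to 149). The edgeR test gave 26.7-fold there (adjusted p = 1.64e-05). The other exporters tested, all of the secretory pathway or mitochondria, moved little. SLC30A5 (-0.37 ± 0.08, adjusted p = 0.00206) and SLC30A7 (-0.26 ± 0.07, adjusted p = 0.011) fell after differentiation. SLC30A6 (-0.37 ± 0.08, adjusted p = 0.00426), SLC30A7 (-0.23 ± 0.07, adjusted p = 0.0309) and SLC30A9 (-0.23 ± 0.07, adjusted p = 0.033) fell before it. The SLC30A7 call after differentiation was lost without replicate 1 of sgSCR (adjusted p = 0.0586). Those of SLC30A7 and SLC30A9 before differentiation were lost without filter (adjusted p = 0.149 and 0.0804), with the libraries of that stage alone (adjusted p = 0.0788 and 0.0855) and without replicate 1 or 2 of sgSCR or replicate 2 of MBD2KO (adjusted p between 0.0586 and 0.156). That of SLC30A7 was also lost with DESeq2 (adjusted p = 0.0599). It was lost too without replicate 3 of sgSCR or replicate 1 of MBD2KO (adjusted p = 0.0505 and 0.0588), and that of SLC30A9 without replicate 3 of MBD2KO (adjusted p = 0.0593). In all, 1 exporter was higher and 2 were lower after differentiation, and 1 was higher and 3 were lower before it. Of all genes tested, 33.1% were called either way after differentiation and 17.2% before it.

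Of 12 further SLC39 genes listed, 9 passed the filter, with 3 called higher and 2 lower in MBD2KO after differentiation, and 4 higher and 2 lower before it. The share of all genes called either way was 33.1% after differentiation and 17.2% before it. SLC39A6 (ZIP6), which pairs with SLC39A10 in a plasma membrane complex, was at 19.2, 17.6 and 19.3 CPM in MBD2KO after differentiation, against 30.0, 28.8 and 32.2 CPM in sgSCR. Before differentiation it was at 19.2, 18.5 and 22.3 CPM in MBD2KO, against 44.3, 41.2 and 38.9 CPM in sgSCR. The groups did not overlap at either stage, and the log2 fold changes were -0.70 ± 0.10 (adjusted p = 2.62e-05) and -1.05 ± 0.09 (adjusted p = 2.64e-07). SLC39A11 was lower in MBD2KO by -1.04 ± 0.12 after differentiation (adjusted p = 4.84e-06) and -0.85 ± 0.11 before it (adjusted p = 2.4e-05). SLC39A14 (ZIP14), an importer of zinc, iron and manganese and the nearest relative of SLC39A8, rose by 0.53 ± 0.11 after differentiation (adjusted p = 0.00126) and 0.68 ± 0.09 before it (adjusted p = 5.21e-05). SLC39A7, which releases zinc from the endoplasmic reticulum, was higher by 0.25 after differentiation (adjusted p = 0.021) and 0.31 before it (adjusted p = 0.0073). The first of these was lost with library size alone (adjusted p = 0.435), without filter (adjusted p = 0.0829) and without replicate 1 or 3 of either group after differentiation (adjusted p between 0.0537 and 0.0868), and the second without replicate 1 of sgSCR (adjusted p = 0.0538). SLC39A3 was called higher after differentiation (0.47, adjusted p = 0.00159) and SLC39A1 before it (0.39, adjusted p = 0.00618).

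**Figure D5:**
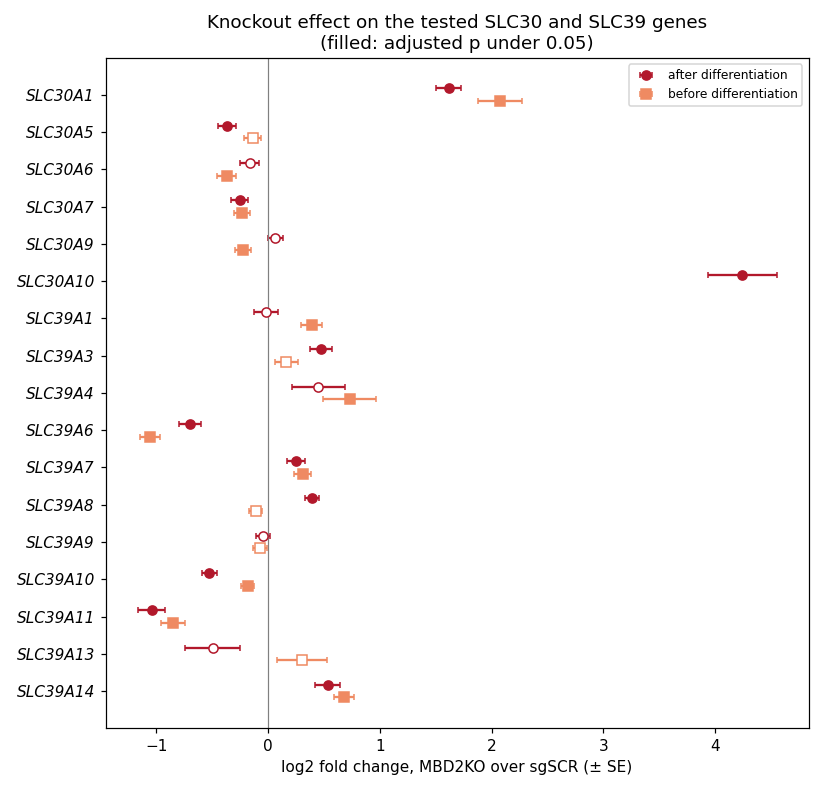
Log2 fold change of MBD2KO over sgSCR with its SE for the tested SLC30 and SLC39 genes after differentiation (circles) and before it (squares), filled where the adjusted p is under 0.05. SLC30A10 at 4.24 and SLC30A1 at 1.61 lie far to the right after differentiation, and SLC39A11 at -1.04 is the lowest of the values after differentiation. The SLC30A10 value before differentiation, which rests on 3 control counts, is left out.

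Copper also binds metallothioneins. Of 12 genes of copper handling listed, 11 were tested, and 5 were called higher and 3 lower in MBD2KO after differentiation, with 4 called before it, all higher. Calls either way took 33.1% of all genes tested after differentiation and 17.2% before it. The copper exporter ATP7B was higher by 1.18 ± 0.06 on the log2 scale after differentiation (adjusted p = 4.63e-10) and 1.15 ± 0.06 before it (adjusted p = 1.64e-09). Its relative ATP7A, the copper importer SLC31A1 and CCS, the chaperone that loads SOD1, were higher after differentiation by 0.63, 0.52 and 0.73. The chaperone ATOX1 and the trafficking protein COMMD1 were lower then, each by -0.43. Before differentiation SLC31A1 (0.21) and CCS (0.26) were called too, and both calls were lost with library size alone (adjusted p = 0.0585 and 0.0955), without filter (adjusted p = 0.153 and 0.102), with the libraries of that stage alone (adjusted p = 0.0798 and 0.11) and without replicate 1 or 2 of sgSCR or replicate 2 of MBD2KO before differentiation (adjusted p between 0.0787 and 0.189). The SLC31A1 call was also lost without replicate 3 of MBD2KO (adjusted p = 0.0633), and the CCS call with DESeq2 (adjusted p = 0.0705) and without replicate 1 of MBD2KO (adjusted p = 0.181) or any library after differentiation other than replicate 3 of MBD2KO (adjusted p between 0.052 and 0.0641).

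Of 8 zinc enzymes of red cells listed, 7 were tested, with 4 called higher and 1 lower after differentiation, and 2 called before it, both higher. Over all genes tested, 33.1% were called either way after differentiation and 17.2% before it. Carbonic anhydrase CA2 was higher by 0.79 after differentiation (adjusted p = 2.98e-07) and 0.48 before it (adjusted p = 0.00016). CA13 was higher by 0.83 and 1.32, though its call after differentiation was lost with DESeq2 (adjusted p = 0.0544), without replicate 2 of sgSCR (adjusted p = 0.0778) and without replicate 1 of MBD2KO (adjusted p = 0.0524) after differentiation. ALAD, of haem synthesis, was higher by 0.79 after differentiation, and CA1 by 0.35. GLO1, which detoxifies methylglyoxal, was lower by -0.27.

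Genes of metal and oxidant stress did not move as one. Of 16 tested, 5 were higher and 6 lower in MBD2KO after differentiation, and 4 were higher and 3 lower before it. For all genes tested, the share called either way was 33.1% after differentiation and 17.2% before it. Both subunits of the enzyme that starts glutathione synthesis were higher after differentiation, GCLC by 0.89 (adjusted p = 3.69e-08) and GCLM by 0.64 (adjusted p = 5.3e-05). The heat shock genes HSPH1 (-0.94), HSPA8 (-0.75) and HSPA1A (-0.56) and the quinone reductase NQO1 (-1.32) were lower. Before differentiation GCLC (0.30) and HSPA8 (0.31) were higher, and HSPA1A (-0.41) and NQO1 (-0.71) were lower. The NQO1 call before differentiation was lost without replicate 1 or 2 of sgSCR (adjusted p = 0.0561 each) or replicate 2 of MBD2KO (adjusted p = 0.0539) before differentiation. The HSPA8 call before differentiation was lost with library size alone (adjusted p = 0.0551), with the libraries of that stage alone (adjusted p = 0.09) and without any 1 of 4 libraries of that stage, replicates 1, 2 and 3 of sgSCR and replicate 3 of MBD2KO (adjusted p between 0.0691 and 0.153).

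Glucocorticoid targets are given because only the expansion medium held dexamethasone. Of 12 tested, 4 were higher and 2 lower in MBD2KO after differentiation, and 4 were higher and 3 lower before it. Among all genes tested, 33.1% were called either way after differentiation and 17.2% before it. KLF9 was higher by 1.54 ± 0.10 after differentiation (adjusted p = 1.97e-09) and 0.37 ± 0.10 before it (adjusted p = 0.0129). DUSP1 was higher by 0.91 and 0.37, and TSC22D3 by 0.83 after differentiation. Before differentiation the KLF9 call was lost without replicate 2 of sgSCR (adjusted p = 0.0739) or replicate 1 of MBD2KO (adjusted p = 0.0798), and the DUSP1 call without replicate 2 of sgSCR (adjusted p = 0.0583). FKBP5 was lower after differentiation by -0.63, and the chemokine receptor CXCR4 was higher before it by 1.66. The receptor gene NR3C1 itself was higher by 0.23 after differentiation, a call lost with library size alone (adjusted p = 0.37) and without filter (adjusted p = 0.0912), and lower by -0.32 before it. From before to after differentiation, 6 of the 12 were called higher and 3 lower in MBD2KO, and 4 higher and 1 lower in sgSCR. All genes tested gave 55.7% called either way in MBD2KO and 43.8% in sgSCR.

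Markers of other blood cells moved between the groups as well, and their part in the results above was not tested. Beside the counts of calls given here, 16.8% of all genes tested were called higher and 16.3% lower after differentiation. Before it, these shares were 9.07% and 8.15%. The 12 mast cell and basophil markers summed to between 388.1 and 413.8 CPM in MBD2KO after differentiation, against 687.2 to 702.2 CPM in sgSCR, and 7 of the 8 tested were called lower. Before differentiation they summed to between 749.6 and 778.6 CPM in MBD2KO, against 958 to 1012 CPM in sgSCR, with 5 of 8 lower. KIT, which erythroid progenitors also express, took most of these sums, at 359.4 to 381.2 CPM in MBD2KO and 577.6 to 591.1 CPM in sgSCR after differentiation. The other 11 markers summed to 25.4 to 32.6 CPM in MBD2KO and 104.1 to 113.3 CPM in sgSCR after differentiation, and to 94.7 to 112.2 CPM in MBD2KO and 223.4 to 244.7 CPM in sgSCR before it. The 13 neutrophil and monocyte markers summed to 5.17 to 8.86 CPM in MBD2KO and 5.26 to 6.10 CPM in sgSCR after differentiation. Before it they summed to 32.5 to 42.2 CPM in MBD2KO and 14.5 to 16.9 CPM in sgSCR, with 5 of 6 tested higher. S100A8, S100A9 and CTSG were at 0 counts in MBD2KO at both stages, and S100A8 and S100A9 in sgSCR before differentiation. The 11 megakaryocyte markers summed to 68.7 to 73.8 CPM in MBD2KO and 25.9 to 28.9 CPM in sgSCR after differentiation. Of the 3 tested, 2 were then called higher, LTBP1 and TUBB1, and ITGA2B was not called. Before differentiation the 11 markers summed to 47.6 to 70.4 CPM in MBD2KO and 28.9 to 32.7 CPM in sgSCR, with 3 of 3 higher. PPBP was at 0 in every group and PF4 in MBD2KO, VWF was at 0 in both groups before differentiation, SELP in MBD2KO and ITGB3 in sgSCR before it. Among mast cell markers, CLC was at 0 in MBD2KO and FCER1A in sgSCR before differentiation. Erythroid genes were summed as well, and their relation to SLC30A1 was not tested. The 11 reported summed to 19843 to 20091 CPM in MBD2KO and 10362 to 10879 CPM in sgSCR after differentiation, with 11 of 11 called higher. Before it they summed to 8452 to 9815 CPM in MBD2KO and 7651 to 8142 CPM in sgSCR, with 8 of 11 higher. Without the transferrin receptor TFRC, which took much of the sum, the other 10 were at 8001 to 8545 CPM in MBD2KO and 3718 to 3828 CPM in sgSCR after differentiation. ALAS2, which starts haem synthesis in red cell precursors, was at 961.6, 943.4 and 1027 CPM in MBD2KO after differentiation, against 256.5, 254.4 and 245.2 CPM in sgSCR. Before differentiation ALAS2 was at 237.2, 225.8 and 204.3 CPM in MBD2KO, against 143, 141.5 and 144.4 CPM in sgSCR, and the groups stood apart at both stages.

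By Pearson correlation of log2 CPM over the 12 libraries, among 9597 genes of sufficient level, those most like MT1X were APOL6 (0.994), CUX1 (0.993), OGT (0.992), ERCC1 (0.990) and EHBP1 (0.988). Those most like SLC39A8 were PCMTD1 (0.989), CNOT10 (0.987), STK17B (0.986), TRIM23 (0.982) and ENDOD1 (0.982). These values describe the libraries, which share the 4 groups, and carry no test.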

How the data were processed

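RNA from 12 HUDEP-2 libraries in 4 groups of 3 had been prepared with a stranded kit that depletes globin mRNA and ribosomal RNA, per the labels' protocols. The deposited values are raw counts of read pairs per gene, made by the authors with featureCounts 1.4.6-p4 over GENCODE release 22 exons of hg38 without a strand option, per the file headers. The submitters' processing notes list edgeR 3.18.1, Subread 1.6.2, featureCounts 1.2.6, FastQC and Trimmomatic. Symbols came from GENCODE 29 and named 56753 of 60483 genes. Exon lengths for TPM are those deposited by the authors in the same table.

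From the counts, genes were filtered (filterByExpr), scaled (TMM) and tested in a group-means model of all 12 libraries with edgeR 4.0.16 in R 4.3.3 (two-sided quasi-likelihood F-test, Benjamini-Hochberg over 17175 genes, threshold 0.05). The common biological coefficient of variation was 0.089. SE is the size of the log2 fold change divided by the root of F. Where a group had 3 counts or fewer, exact binomial 95% intervals or a floor of 3 counts were used, which cover counting error only. The procedure was tested on simulated data, with the same spread for all genes and changes planted only in genes above a count limit. That test does not cover genes of few counts, such as the metallothioneins before differentiation. Alternatives were RLE factors, library size alone, DESeq2 1.42.0, no filter, the libraries of one comparison alone, a replicate block and leaving out each library. Replicates of a group differed by more than sampling noise (chi-square per degree of freedom 4.77 to 18.35).

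Members and lists were chosen with earlier results of these data known. Named genes are all 9 members, up to 6 genes per list with the smallest adjusted p among those called in a knockout comparison, MBD2, and the 5 genes most like the most abundant metallothionein and transporter. Lists of marker genes and of erythroid genes are given as counts and sums, some also without the gene that took most of the sum, a choice made after seeing the data. One item of the erythroid list is not reported here.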

Additional observations from a re-analysis of the deposited data

Results flagged for a closer look

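For 16 of the named genes outside the marker and erythroid lists, the knockout effect after differentiation differed from that before it. This was edgeR's test of the difference itself (adjusted p under 0.05). The marker and erythroid lists were left out, though genes passed there too. Of 8 mast cell and basophil markers tested, 1 was called higher and 5 lower, with KIT at -0.50. Of 6 neutrophil and monocyte markers 1 was lower, and of 3 megakaryocyte markers 2 were lower. Erythroid genes that passed included TFRC (0.65), ALAS2 (1.32) and SLC4A1 (-1.27). Over all genes tested, 13% passed. Apart from the members, the 16 genes were named for a knockout call in the same libraries, so they cannot be set against that share. The values are log2 fold changes of MBD2KO over sgSCR after differentiation minus those before it. Among the members they were 0.51 for SLC39A8 and -0.34 for SLC39A10. In copper handling they were 0.31 for SLC31A1, 0.71 for ATP7A, -0.64 for ATOX1 and 0.47 for CCS. For the zinc enzymes they were 0.54 for CA1 and 0.92 for ALAD. Stress genes gave 0.59 for GCLC, -0.88 for HSPH1 and -1.06 for HSPA8. Glucocorticoid targets gave 0.56 for TSC22D3, -0.61 for FKBP5, 0.54 for DUSP1 and 1.18 for KLF9, and the receptor gene NR3C1 gave 0.55. With library size alone the differences of SLC31A1 (adjusted p = 0.205), CCS (adjusted p = 0.0736) and TSC22D3 (adjusted p = 0.102) were no longer called. Without replicate 2 or 3 of sgSCR or 1 or 2 of MBD2KO after differentiation that of SLC31A1 was not called either (adjusted p between 0.0513 and 0.0638), nor was it without filter (adjusted p = 0.226). That of TSC22D3 was not called without replicate 1 of sgSCR or 3 of MBD2KO before differentiation, nor without replicate 2 or 3 of sgSCR or 3 of MBD2KO after it (adjusted p between 0.0524 and 0.0723).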

How the results depend on the processing

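Of 705 values of the 8 tested members under an alternative, 664 kept their direction and their side of the threshold, 24 were no longer called, 1 became called and 16 changed sign. Those that changed sign were small or rested on few counts, and none had been called. In the knockout effect before differentiation they were MT2A with the replicate block (0.00), without sgSCR_pre replicate 1 (0.44) or 3 (0.06) and without MBD2KO_pre replicate 2 (0.50), MT1E without MBD2KO_pre replicate 3 (0.00) and MTF1 without sgSCR_pre replicate 3 (-0.02). When each library was left out, these effects ranged from 0.00 to 2.27 (MT1E), -0.48 to 0.50 (MT2A) and -0.02 to 0.19 (MTF1). After differentiation it was MT1E without MBD2KO_post replicate 3 (0.39, lowest -0.64). In the change with differentiation in sgSCR it was SLC39A8 with library size alone (-0.02) and without sgSCR_pre replicate 3 (-0.00). In the difference between knockout effects they were MT1X without MBD2KO_pre replicate 1 (0.40), MT1G without sgSCR_pre replicate 3 or MBD2KO_pre replicate 3 (-0.27 each), MT2A without sgSCR_pre replicate 2 (0.06) or MBD2KO_pre replicate 3 (0.03), and MTF1 with library size alone (-0.05) and without sgSCR_pre replicate 2 (-0.03), with ranges of -0.52 to 0.40 (MT1X), -0.27 to 0.55 (MT1G), -0.92 to 0.06 (MT2A) and -0.03 to 0.19 (MTF1). The cause was not tested.

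The count of members called lower in MBD2KO before differentiation, 1 (SLC39A10), was 0 with RLE factors, with no filter and with the libraries of the comparison alone, and 0 to 1 when each library was left out. The cause was not tested. Counts over all genes stayed within 1.5 times, at 4722 to 6139 for the knockout after differentiation and 2016 to 3007 before it when each library was left out. Library size alone moved the median log2 fold change of all genes to -0.167 for the knockout after differentiation and to -0.156 for differentiation in MBD2KO, and the share of higher calls from 50.7% to 27.6% and from 50.3% to 35.1%. In the difference between knockout effects it moved them to -0.145 and from 48.5% to 23.1%. The knockout effects after differentiation were then 1.46 for SLC30A1, -0.68 for SLC39A10, -0.85 for MT1X and -0.86 for MT1G.

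Same-numbered libraries had correlations of -0.018 to 0.251 over 18 pairs of deviations, and 12 of the 18 were the best match of their library, a hint from the data and not from the design. In each of the comparisons made, at least 1 same-numbered pair was not over 0.1, so the numbers were not taken to pair the samples. With the replicate block, 1 member was called higher and 1 lower before differentiation. Over all genes the block gave more calls in every comparison. For the knockout these were 3491 against 2958 before differentiation and 6137 against 5687 after it. Whether the numbers mark a shared batch was not tested. The interaction was not fitted to the libraries of one comparison alone. Depth limits MT1E, MT1F and MT1G, which had 4 counts or fewer per group before differentiation.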
